A study of Mus musculus with 4 samples.

Results

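The 8 genes described here make, break down or carry histidine and the dipeptide carnosine, and were followed in nuclei of the mouse hypothalamus. They were chosen by symbol among the 33696 genes of the deposited count files, and each symbol stood for 1 gene identifier: Carns1 (ENSMUSG00000075289), Cndp2 (ENSMUSG00000024644), Slc15a2 (ENSMUSG00000022899), Slc15a4 (ENSMUSG00000029416), Slc38a3 (ENSMUSG00000010064), Slc22a3 (ENSMUSG00000023828), Hal (ENSMUSG00000020017) and Amdhd1 (ENSMUSG00000015890). Single-nucleus RNA was counted in 4 libraries, 2 of vehicle-treated mice (vehicle 1 and vehicle 2) and 2 of mice given imidazole propionate, or ImP (ImP 3 and ImP 4). All were wild-type C57BL/6J mice with an osmotic minipump in the abdomen that ran for 2 weeks, with 350 µg of ImP per day or with the vehicle alone, water with 1% DMSO, and the sample titles call all 4 SPF. The age of the mice is not given in the sources used here, and whether a library stands for 1 animal or a pool is not stated, so the p-values measure only the spread between libraries, which may be technical. The questions were which classes of nuclei carried each gene, at what level in each library, and whether levels differed between ImP and vehicle.

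Carnosine is joined from beta-alanine and histidine by carnosine synthase and is split again by dipeptidases, and in the nervous system it is best known from oligodendrocytes and olfactory neurons. Histidine itself is broken down, mainly in liver and skin, by histidine ammonia-lyase to urocanate and then by urocanase, imidazolonepropionase and a formiminotransferase, whereas some gut bacteria reduce urocanate to ImP. Neurons that hold histidine decarboxylase instead turn histidine into histamine, and in the brain these lie in the tuberomammillary nucleus of the hypothalamus.

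The 2 peptide transporters of the Slc15 family among the genes, Slc15a2 and Slc15a4, had their highest levels in different glia, the first in astrocytes and the second in newly formed oligodendrocytes, so the 250 bases before the start of each are shown. Both are from RefSeq on build GRCm38.p6, another build than that of the counts, read 5′ to 3′ on the strand of the gene, with every CG pair in capitals. Of the 8 genes, 5 had an entry in that table, and Carns1, Cndp2 and Slc38a3 had none.
Slc15a2 (chr16:36784963-36785212, minus strand): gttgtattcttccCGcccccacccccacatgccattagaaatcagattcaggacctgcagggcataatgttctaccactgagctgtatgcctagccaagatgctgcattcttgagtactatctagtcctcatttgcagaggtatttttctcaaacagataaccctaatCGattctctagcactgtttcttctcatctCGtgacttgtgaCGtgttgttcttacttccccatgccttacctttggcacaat
Slc15a4 (chr5:127617393-127617642, minus strand): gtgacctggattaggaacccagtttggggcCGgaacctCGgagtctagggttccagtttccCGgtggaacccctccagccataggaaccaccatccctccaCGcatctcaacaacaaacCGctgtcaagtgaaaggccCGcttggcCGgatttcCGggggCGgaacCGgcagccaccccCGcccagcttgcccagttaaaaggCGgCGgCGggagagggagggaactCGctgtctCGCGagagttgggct
The Slc15a2 stretch held 4 CG pairs at 45.2% G and C, and 62.2% of the 32851 promoters in the table held at least as many. The Slc15a4 stretch held 17 CG pairs at 62.8% G and C, a number reached by 23.5% of promoters, against a median of 6. The letters TATAAA, searched on both strands, occurred in neither stretch and in 12.4% of all promoters.

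The libraries held 11255 to 16348 barcodes and 48060194 to 51945297 UMIs (unique molecular identifiers, each 1 captured RNA molecule), and 10917, 13023, 14757 and 15725 nuclei were kept in vehicle 1, vehicle 2, ImP 3 and ImP 4. Values for the 4 libraries follow in that order throughout. Median UMIs per nucleus were 3757, 3179, 2852 and 2820, so that the vehicle libraries were the deeper per nucleus, and pairs of libraries shared 39 to 76 barcodes. Nuclei were assigned to classes by marker genes, none of them among the 8, and a class name stands for nuclei that are like that cell type by these markers (astrocyte-like, oligodendrocyte-like and so on). In all, 33453 nuclei were neurons, of which 8007 were GABAergic, 7334 glutamatergic and 18112 assigned to neither transmitter. There were 3517 astrocytes, 5081 oligodendrocytes, 103 newly formed oligodendrocytes, 855 oligodendrocyte precursors, 478 microglia and 134 ependymal nuclei. Endothelial, mural, fibroblast, tanycyte and pituitary nuclei were under 20 in at least 1 library and were not tested. The 10 astrocyte markers summed to 8096, 9165, 8270 and 8229 CPM (the UMIs of a gene scaled to a fixed total of UMIs of its class) in astrocytes, against 170, 190, 251 and 235 in neurons. The 10 oligodendrocyte markers summed to 13584, 12403, 12301 and 10836 CPM in oligodendrocytes, against 175, 217, 284 and 289 in neurons. In nuclei gated as neurons both glial lists were thus low but not absent, and both were higher in the ImP libraries. ImP 4 stood apart in pituitary material: it held 125 of the 126 pituitary nuclei, and the 10 pituitary markers summed to 29.6, 12.2, 33.0 and 2013 CPM in neurons. CPM of 3′ UMI counts are not scaled by gene length here, so levels are compared between classes and libraries and not between genes.

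The genes had their highest levels in different classes. Carns1 stood far above its level elsewhere in oligodendrocytes, Slc38a3 and Slc15a2 were highest in astrocytes among the tested classes, Slc15a4 in newly formed and mature oligodendrocytes and microglia, and Cndp2 in microglia, whereas Slc22a3 was low in every class, with its highest mean in precursors (7.41 CPM from 14 UMIs), and Hal and Amdhd1 were hardly detected. Each of 8 classes was compared with the mean of the other 7 (edgeR quasi-likelihood test on UMIs summed per library and class, library as a block, Benjamini-Hochberg adjusted p under 0.05, 13622 genes). Of the 8 genes, 5 passed the filter on low counts, and a gene that is low in every class but one passes it only through that class. Among these 5, the number higher was 2 in astrocytes (28% of all genes tested were higher there), 2 in oligodendrocytes (30.6%), 1 in newly formed oligodendrocytes (7.5%), 2 in precursors (19.1%), 2 in microglia (17.3%), 1 in ependymal nuclei (9.87%), and 0 in GABAergic and glutamatergic neurons (36% and 35.9%). The number lower was 4 in GABAergic neurons (19.3%), 3 in glutamatergic neurons (19.2%), 1 in astrocytes (13.2%), 1 in oligodendrocytes (18%), 1 in precursors (4.67%) and 0 in newly formed oligodendrocytes, microglia and ependymal nuclei (6.84%, 17.2% and 7.6%). The counts rest on 5 genes, and are given as a description. Pairs of classes were compared in the same fit, for 15 pairs chosen after the levels had been seen.

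**Figure D1:**
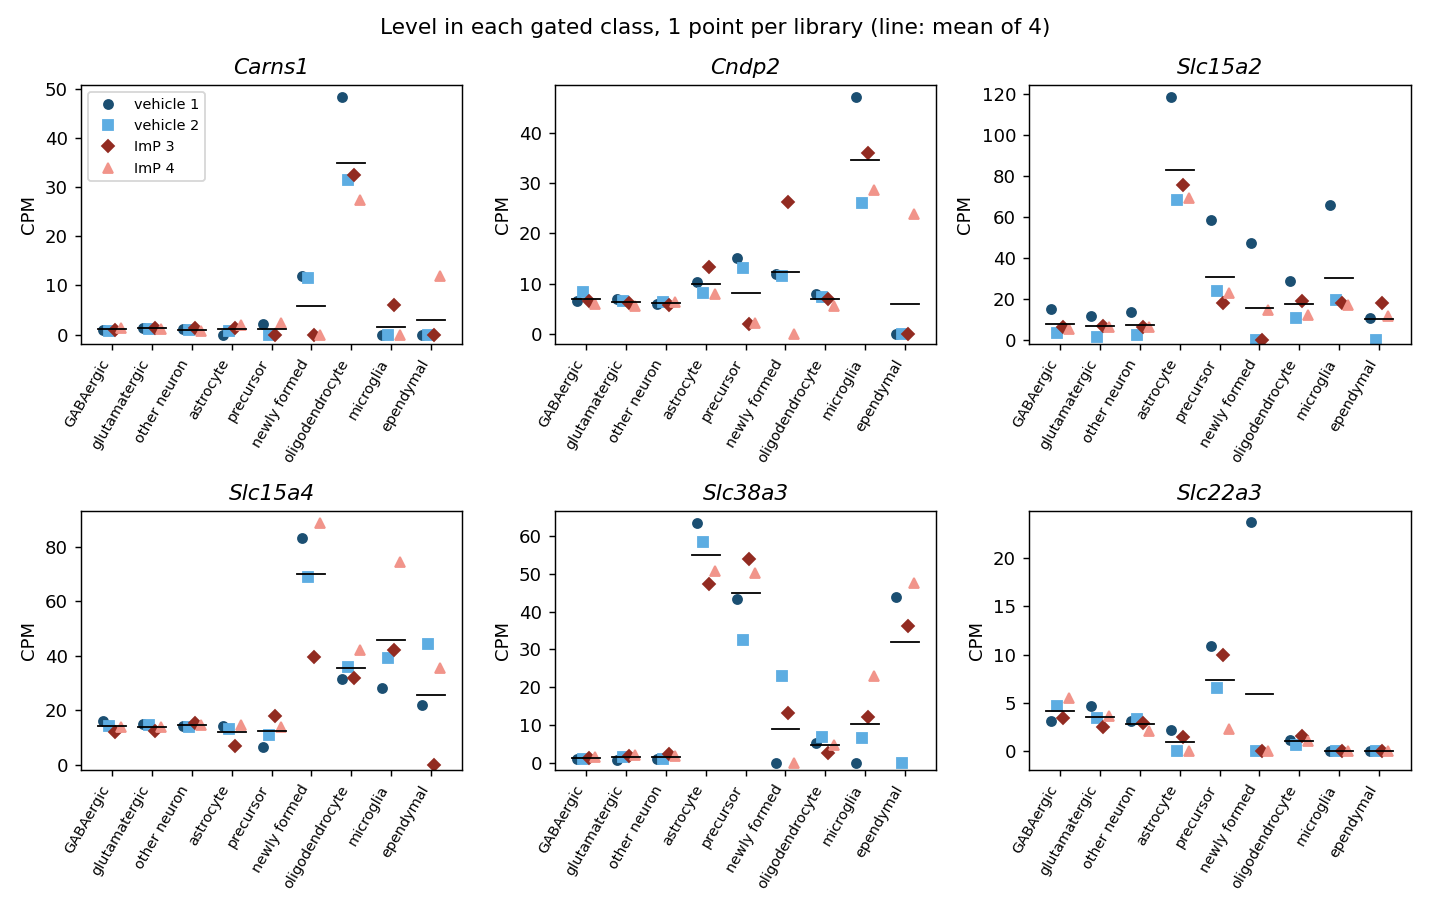
CPM (linear vertical axis) of 6 of the genes in 9 classes of nuclei, 1 point per library and a line at the mean of the 4 libraries. Carns1 stands at 27.3 to 48.4 CPM in oligodendrocytes, Slc15a2 and Slc38a3 are highest in astrocytes among these classes, and the newly formed oligodendrocyte, microglia and ependymal points scatter, each resting on few UMIs.

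Carns1 encodes carnosine synthase, the ligase that makes carnosine. In oligodendrocytes it stood at 48.4, 31.5, 32.5 and 27.3 CPM, from 84, 56, 65 and 54 UMIs. In neurons it stood at 1.17, 0.975, 1.26 and 0.980 CPM, and in astrocytes 0, 1, 2 and 3 UMIs were counted, where the count of 0 allows up to 2.22 CPM (3 counts of that library's astrocyte UMIs). Every oligodendrocyte value was above every value of these other classes, although the more numerous neurons held 165 of the 551 UMIs of the gene in kept nuclei, against 259 in oligodendrocytes. The level in oligodendrocytes was higher than the mean of the other classes by 4.40 on the log2 scale (SE 0.24, edgeR adjusted p = 3.25e-28). Carns1 passed the filter on low counts through its oligodendrocyte UMIs, so its differences between classes are given as a description of the levels. UMIs were found in 6.88%, 4.41%, 4.34% and 3.89% of oligodendrocytes, and in 4.54%, 2.93%, 3.24% and 2.78% after each nucleus was thinned to 1000 UMIs. The share in neurons, whose nuclei were deeper in every library, was 0.633%, 0.452%, 0.519% and 0.398% unthinned. The part of free RNA in this share was not tested.

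Within the oligodendrocyte lineage Carns1 was highest in the mature nuclei. Precursors held 1, 0, 0 and 1 UMIs, and newly formed oligodendrocytes 1, 1, 0 and 0. Mature oligodendrocytes were higher than precursors by 4.93 (log2, SE 0.55, edgeR adjusted p = 1.72e-12, where 40.2% of all genes differed) and higher than newly formed ones by 2.63 (SE 0.77, adjusted p = 0.00800, where 20.3% differed). The last difference was lost with DESeq2 (2.37, adjusted p = 0.0942) and without ImP 3 (2.27, adjusted p = 0.0604). Against GABAergic neurons the difference was 5.02 (SE 0.22, adjusted p = 4.51e-35, 73.9% of genes differing) and against astrocytes 5.02 (SE 0.36, adjusted p = 1.60e-21, 47.1%). GABAergic neurons were below the mean of the other classes (-1.33, adjusted p = 0.0262), a call lost when any 1 library was left out (-1.32 to -0.59), with the stricter gate (-0.54) and with nuclei of at least 1000 genes (-0.23). Ependymal nuclei were too few to fit under the stricter gate, and at 1000 genes newly formed oligodendrocytes were too few as well. The mean of the other classes was there taken over fewer classes, here and for the genes below.

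Cndp2 encodes the cytosolic dipeptidase that splits carnosine and other dipeptides. In microglia it stood at 47.1, 26.1, 36.0 and 28.7 CPM, from only 5, 4, 6 and 5 UMIs. Neurons held 6.47, 7.09, 6.12 and 6.12 CPM, astrocytes 10.4, 8.11, 13.3 and 7.93, and oligodendrocytes 8.06, 7.32, 6.99 and 5.57. The microglial values lay above all of these in every library, and the oligodendrocyte range overlapped those of neurons and of astrocytes. Microglia were higher than the mean of the other classes by 1.72 (log2, SE 0.44, edgeR adjusted p = 9.39e-04), than GABAergic neurons by 1.87 (adjusted p = 1.20e-04, 50.4% of genes differing) and than oligodendrocytes by 1.83 (adjusted p = 5.47e-04, 32.6%). The difference from astrocytes was 1.39 (adjusted p = 0.00789), a call lost with nuclei of at least 1000 genes (1.30, adjusted p = 0.108). That from newly formed oligodendrocytes, which held 4 UMIs in all, did not pass the test (1.16, adjusted p = 0.312, 23.6%). The 95% Poisson interval of the microglial level reached from 15.3 to 109.9 CPM in vehicle 1, so its size is known only within a wide range.

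Other enzymes act on the same molecules. Cndp1, which encodes another carnosinase, did not exceed a mean of 0.676 CPM in any tested class. Carnmt1, which methylates carnosine to anserine, had its highest mean in precursors, at 50.5 CPM.

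Slc15a2 encodes PEPT2, a proton-coupled carrier of di- and tripeptides, carnosine among them, in the cell membrane. Astrocytes held 118, 68.1, 75.3 and 69.4 CPM, from 160, 84, 108 and 105 UMIs, and 18.4%, 9.42%, 10.5% and 9.88% of their nuclei had a UMI. Precursors held 58.6, 23.9, 18.0 and 22.9 CPM, oligodendrocytes 28.8, 10.7, 19.0 and 12.2, and microglia 65.9, 19.6, 18.0 and 17.2 from 7, 3, 3 and 3 UMIs. Vehicle 1 was the highest library in each of these classes, and within every library astrocytes were the highest of the tested classes. Astrocytes were higher than the mean of the other classes by 2.63 (log2, SE 0.16, edgeR adjusted p = 6.04e-25), than precursors by 1.36 (adjusted p = 6.04e-07, 33.8% of genes differing) and than GABAergic neurons by 3.40 (68.3%). Precursors were also above the mean of the other classes (1.08, SE 0.30, adjusted p = 0.00409), a call lost without vehicle 1 (1.02, adjusted p = 0.0805). GABAergic and glutamatergic neurons were below it (-1.26 and -1.47).

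Slc15a4 encodes PHT1, which carries histidine and peptides out of lysosomes and endosomes. Newly formed oligodendrocytes held 83.1, 68.9, 39.4 and 88.9 CPM, from 7, 6, 3 and 6 UMIs. Mature oligodendrocytes held 31.7, 36.0, 32.0 and 42.0 CPM, microglia 28.2, 39.1, 42.0 and 74.5, and precursors 6.51, 10.9, 18.0 and 13.7. Neurons were close to one another across libraries, at 15.03, 14.3, 14.0 and 14.3 CPM, and astrocytes held 14.0, 13.0, 6.98 and 14.5. The order of the means was thus newly formed oligodendrocytes, microglia, mature oligodendrocytes and then the remaining classes.

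Newly formed oligodendrocytes were above the mean of the other classes by 1.76 (log2, SE 0.38, edgeR adjusted p = 2.90e-04) and above precursors by 2.28 (adjusted p = 7.35e-05, 15.2% of genes differing). Mature oligodendrocytes were above the mean of the other classes by 0.85 (SE 0.14, adjusted p = 4.55e-07) and above precursors by 1.49 (adjusted p = 5.90e-06). The differences between neighbours at the top of the order did not pass the threshold: mature minus newly formed gave -0.80 (SE 0.35, adjusted p = 0.106), microglia minus mature oligodendrocytes 0.02 (SE 0.29, adjusted p = 0.976), and microglia minus newly formed -0.78 (SE 0.42, adjusted p = 0.193). Astrocytes, precursors and both neuron classes were below the mean of the other classes (-1.01, -0.85, -0.70 and -0.68). Of these calls, that of precursors was lost without vehicle 1 (-0.74), vehicle 2 (-0.90) or ImP 4 (-0.76) and with nuclei of at least 1000 genes (-0.68). Microglia were above the mean by 0.87 (adjusted p = 0.0231), a call lost without ImP 3 (0.85, adjusted p = 0.0651) or ImP 4 (0.58, adjusted p = 0.358), with no filter on low counts (0.79, adjusted p = 0.0716), with the stricter gate (0.71) and with nuclei of at least 1000 genes (1.05, adjusted p = 0.114).

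Slc38a3 encodes SNAT3, a sodium-coupled carrier of glutamine, histidine and asparagine that astrocytes are known to use for glutamine release. Astrocytes held 63.6, 58.4, 47.4 and 50.9 CPM, from 86, 72, 68 and 77 UMIs, and 9.84%, 7.96%, 6.87% and 7.54% of their nuclei had a UMI, against 0.464%, 0.488%, 0.779% and 0.699% of neurons. Precursors held 43.4, 32.6, 54.0 and 50.3 CPM, from 20, 15, 27 and 22 UMIs. The values of both classes overlapped, and astrocytes minus precursors gave 0.18 (log2, SE 0.21, edgeR adjusted p = 0.579). Each of them was above the mean of the other classes, astrocytes by 2.93 (SE 0.18, adjusted p = 1.33e-25) and precursors by 2.73 (SE 0.26, adjusted p = 8.28e-15).

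The mature oligodendrocytes held only 5.18, 6.75, 2.50 and 4.56 CPM of Slc38a3, below precursors (-3.29 on the log2 scale). Their call against the mean of the other classes (-1.04, adjusted p = 0.00679) was lost without ImP 3 (-0.76) or ImP 4 (-0.86), with the stricter gate (-0.50) and with nuclei of at least 1000 genes (-0.41). Ependymal nuclei held 4, 0, 2 and 4 UMIs, or 43.8, 0, 36.3 and 47.6 CPM. Their excess over the mean of the other classes (1.80, adjusted p = 0.0315) was lost without vehicle 1 (1.52), ImP 3 (1.83) or ImP 4 (1.66), and astrocytes did not differ from them past the threshold (0.99, adjusted p = 0.147, 17.9% of genes differing). In the 77 endothelial nuclei 6 UMIs gave a pooled 70.3 CPM (95% Poisson interval 25.8 to 153), with no test. GABAergic and glutamatergic neurons were below the mean of the other classes (-3.43 and -2.90).

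**Figure D2:**
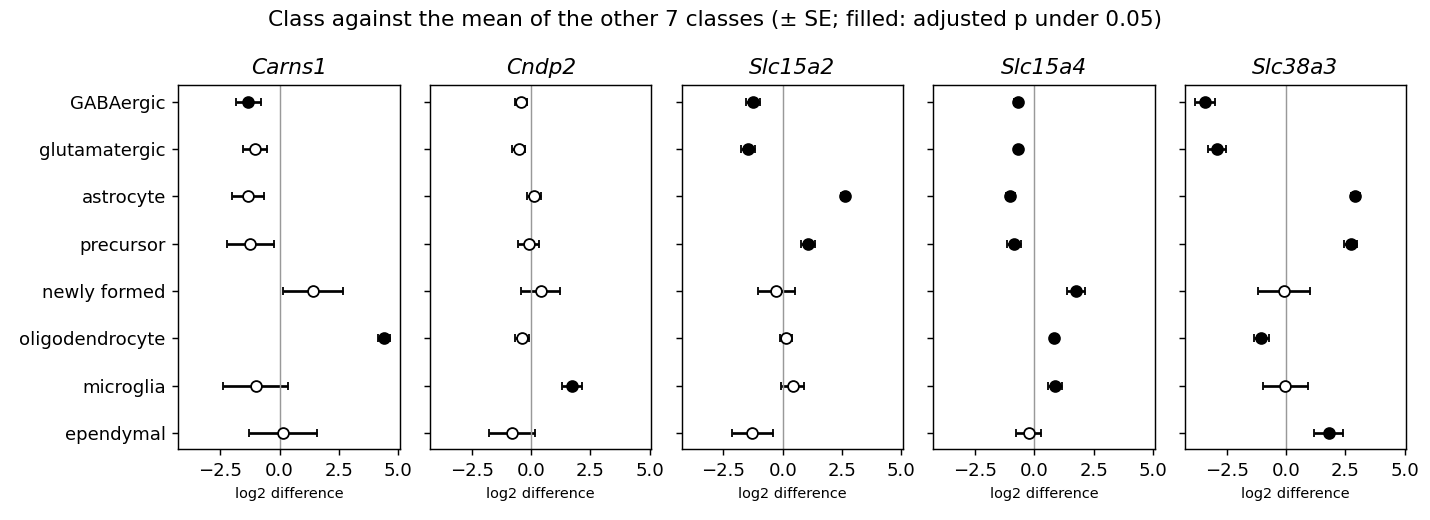
Difference of each class from the mean of the other 7 classes (log2, horizontal axis, bars 1 SE) for the 5 genes that passed the filter on low counts, with filled points where the edgeR adjusted p was under 0.05. Carns1 in oligodendrocytes lies farthest to the right, at 4.40, and Slc15a2 and Slc38a3 lie at 2.63 and 2.93 in astrocytes.

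Slc22a3 encodes OCT3, a carrier of histamine, other monoamines and organic cations. Neurons held 3.54, 3.72, 2.94 and 3.31 CPM, from 136, 141, 107 and 125 UMIs, or 509 of the 612 UMIs of the gene in kept nuclei. Over all genes, neurons held 150603538 of the 195840875 UMIs of kept nuclei, so most UMIs of an evenly spread gene would lie there. Precursors held 10.8, 6.52, 9.99 and 2.29 CPM, from only 5, 3, 5 and 1 UMIs, and were above neurons in 3 of the 4 libraries. Oligodendrocytes held 2, 1, 3 and 2 UMIs, and astrocytes 3, 0, 2 and 0. Microglia, endothelial, mural, fibroblast, ependymal, tanycyte and pituitary nuclei held none in any library. However, 3 counts would be 4.995 CPM over all microglia and 10.9 CPM over all ependymal nuclei, so a level like that of neurons would give fewer than 3 counts there. The gene did not pass the filter, and in the fit without a filter (27644 genes) oligodendrocytes were below GABAergic neurons (log2 difference -1.94, SE 0.43, edgeR adjusted p = 2.16e-05, 44.5% of genes differing) and so were astrocytes (-2.27, SE 0.50, adjusted p = 2.63e-05, 41% differing). Both were also below precursors, oligodendrocytes with a difference of -2.70 (SE 0.63, adjusted p = 1.59e-04, 21.5% differing) and astrocytes with one of -3.04 (SE 0.69, adjusted p = 1.14e-04, 17.6% differing). Precursors minus GABAergic neurons gave 0.77 and did not pass (SE 0.44, adjusted p = 0.238, 24.7% differing). Microglia minus GABAergic neurons gave -6.64 and passed in that fit (SE 2.50, adjusted p = 0.0315), a difference of uncertain size that rests on the absence of UMIs in few microglia. GABAergic minus glutamatergic neurons gave 0.19 (SE 0.19, adjusted p = 0.867, 5.67% differing). In the 4 libraries 1.12% to 1.75% of neuronal nuclei had a UMI, and 0.273% to 0.381% at 1000 UMIs per nucleus.

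Hal and Amdhd1 encode histidine ammonia-lyase and imidazolonepropionase, the first and the third enzyme of histidine breakdown. Over all kept nuclei, Hal gave 8, 2, 5 and 9 UMIs, and Amdhd1 8, 6, 8 and 20. Neurons held 18 of the 24 Hal UMIs and 35 of the 42 Amdhd1 UMIs. As they also held 150603538 of the 195840875 UMIs of all genes in kept nuclei, these counts do not mark either gene as neuronal. No mean of a gated class exceeded 0.185 CPM for Hal or 0.300 CPM for Amdhd1, and neither gene could be tested. The other enzymes of the same route, Uroc1 and Ftcd, reached at most 0.102 and 0.766 CPM in any tested class. All 4 enzymes of the route thus stayed below 1 CPM on average in every tested class.

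Beyond the 8 genes, 36 genes of 9 lists on the same routes were examined, and 19 of them passed the filter. Of the 19, 9 were higher and 1 lower in GABAergic neurons (36% and 19.3% of all genes tested), 7 and 2 in glutamatergic neurons (35.9% and 19.2%), 6 and 3 in astrocytes (28% and 13.2%) and 4 and 3 in oligodendrocytes (30.6% and 18%). In newly formed oligodendrocytes 2 were higher and 1 lower (7.5% and 6.84% of all genes), in precursors 4 and 5 (19.1% and 4.67%), in microglia 6 and 2 (17.3% and 17.2%) and in ependymal nuclei 3 and 2 (9.87% and 7.6%). Their median difference was 0.41 in GABAergic neurons against 0.14 over all genes tested, 0.29 in glutamatergic neurons against 0.13, and 0.38 in microglia against -0.06. It was -0.24 in newly formed oligodendrocytes against -0.30, and -0.09 in ependymal nuclei against -0.20. In astrocytes it was the lower, at -0.007 against 0.148, as in oligodendrocytes (0.106 against 0.150) and precursors (0.128 against 0.137). Among the other Slc15 genes, Slc15a3, which like Slc15a4 resides in endosomes and lysosomes, was highest in microglia at a mean of 29.6 CPM from 18 UMIs, while Slc15a1 did not exceed 0.125 CPM and Slc15a5 1.80 CPM.

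The genes that supply beta-alanine or carry it had their highest means in several classes. Dpyd, the first enzyme of pyrimidine breakdown, was highest in precursors (mean 943 CPM), Csad, a decarboxylase, in newly formed oligodendrocytes (180 CPM), Abat, which degrades GABA and beta-alanine, in astrocytes (263 CPM), and the taurine and beta-alanine transporter Slc6a6 in microglia among the tested classes (215 CPM). Gadl1, a further decarboxylase, stood at 7.48 CPM in astrocytes. Dpys and Upb1, the later enzymes of pyrimidine breakdown, were low and had their highest means in GABAergic neurons (1.70 and 2.00 CPM). Of the carriers of glutamine and large neutral amino acids, Slc38a1 was highest in ependymal nuclei (599 CPM), Slc38a2 in oligodendrocytes (678 CPM), Slc7a8 in microglia (257 CPM) and Slc3a2 in astrocytes (86.3 CPM). In the untested endothelial nuclei Slc7a5 averaged 586 CPM from 48 UMIs and Slc6a6 750 CPM from 68 UMIs. The organic cation carrier Slc22a4 was highest in astrocytes, at 69.7 CPM.

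The genes most alike to each member by Pearson correlation of mean CPM, on the log2 scale, over the 8 tested classes were found among 14405 genes. This is a description over classes that share the same libraries. For Carns1 they were A230001M10Rik (0.99), Ywhaq (0.99) and Sccpdh (0.98), all highest in oligodendrocytes. For Slc15a2 they were Tlcd1 (0.98), Cpped1 (0.97) and Btbd17 (0.96), and for Slc38a3 Dio2 (0.98), Nrarp (0.98) and Gstt1 (0.97), all 6 highest in astrocytes. Rc3h1, Gm20544 and Pcbp2 were the most alike to Slc15a4, and Capzb, Sting1 and Morc3 to Cndp2. Between the members, Slc15a2 and Slc38a3 gave 0.74, and Carns1 with Slc15a4 gave 0.56.

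Neurons were also divided by Hdc, the histidine decarboxylase gene that marks histaminergic neurons, and by neuropeptide genes. The 169 Hdc-gated nuclei held 7, 3, 7 and 1 UMIs of Slc15a2, or 24.1, 10.3, 25.3 and 3.43 CPM, against 13.7, 2.69, 6.59 and 6.28 CPM in all neurons. They were the higher in 3 of the 4 libraries, with a pooled 15.7 CPM (95% Poisson interval 9.28 to 24.7) and no test. No UMI of Slc22a3 or Slc38a3 was found in them, which allows up to 2.61 CPM (3 counts). Among the 12 gates with at least 50 nuclei in all, Slc22a3 was highest in the 128 Sst-gated nuclei, at 10.8 CPM from 6 UMIs (3.98 to 23.6). Single libraries there ranged from 0 to 18.5 CPM. Slc15a4 was highest in the 118 Hcrt-gated nuclei, at 20.8 CPM from 15 UMIs (11.7 to 34.3), with single libraries from 0 to 34.8 CPM. Neither was tested.

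In neurons Slc15a2 differed more between the 2 vehicle libraries than any other gene of at least 500 UMIs, which was noticed after the values had been seen. Neurons held 13.7, 2.69, 6.59 and 6.28 CPM, from 525, 102, 240 and 237 UMIs, and 6.49%, 1.20%, 2.49% and 2.41% of nuclei had a UMI, or 1.58%, 0.368%, 0.704% and 0.714% at 1000 UMIs per nucleus. Vehicle 1 was thus 5.08 times vehicle 2 (95% interval of the ratio 4.10 to 6.34, counting error only), with both ImP libraries between them, and ImP 3 was 1.05 times ImP 4 (0.873 to 1.26). The absolute log2 ratio of 2.30 ranked 1 of the 13566 genes with at least 500 UMIs in neurons, whose median was 0.0930. Next came Gh at 1.90, Nr4a3 at 1.51 and Prl at 1.39, whereas Cndp2, Slc15a4 and Slc22a3 ranked 5017, 8191 and 8273.

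The gap was found in every neuron class. GABAergic neurons held 15.4, 3.60, 6.60 and 5.50 CPM, glutamatergic neurons 11.9, 1.60, 6.84 and 6.66, and neurons of neither transmitter 13.6, 2.69, 6.46 and 6.52. The ratio of vehicle 1 to vehicle 2 was 4.29 (3.03 to 6.20), 7.47 (4.37 to 13.7) and 5.03 (3.65 to 7.06) in these 3 classes. In glia it was 2.69 (1.56 to 4.84) in oligodendrocytes, 2.45 (1.18 to 5.47) in precursors and 1.74 (1.33 to 2.29) in astrocytes. The interval of astrocytes lay below that of all neurons together, while those of oligodendrocytes and precursors overlapped it. The astrocyte markers in neurons, at 170, 190, 251 and 235 CPM, were lowest in vehicle 1, where Slc15a2 was highest. Of the genes beside Slc15a2 in the RefSeq gene order, Eaf2 stood at 108, 97.3, 102 and 94.2 CPM, Iqcb1 at 135, 127, 132 and 135, and Golgb1 at 155, 143, 141 and 142. Vehicle 1 also had the fewest kept nuclei, the most UMIs per nucleus and the lowest median mitochondrial share (0.996%). The part of these features, of RNA from astrocytes or of the position of the gene in the difference was not tested.

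**Figure D3:**
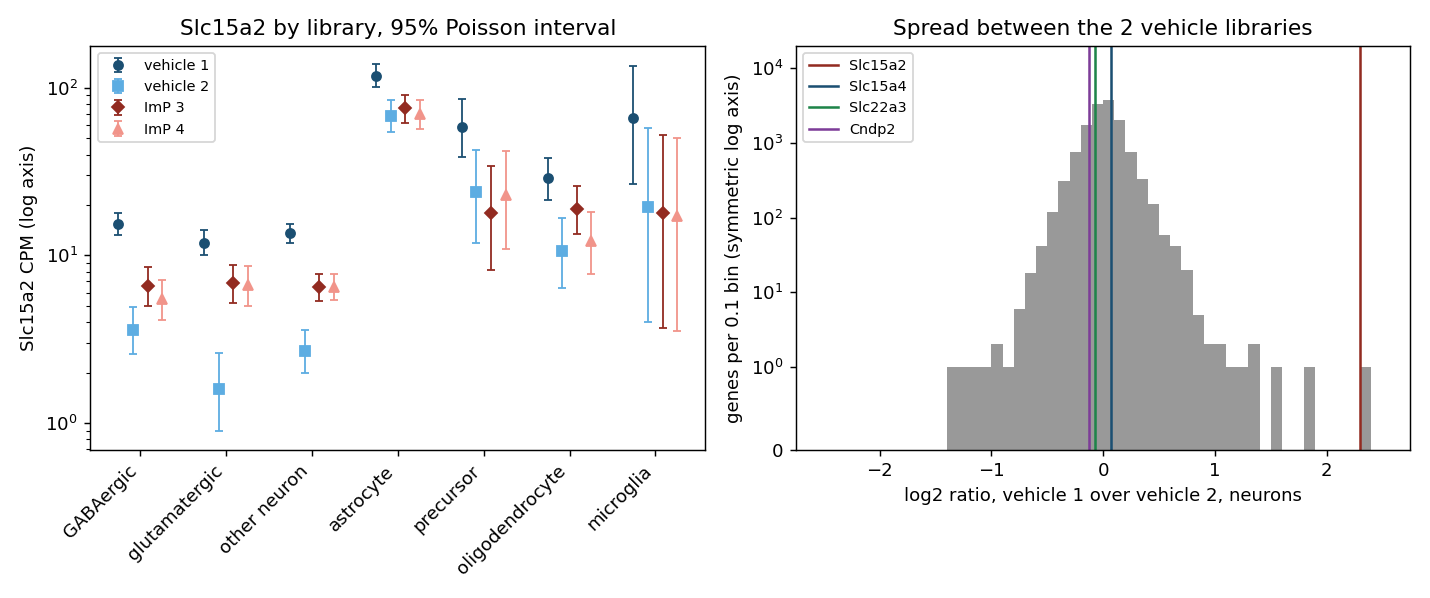
Left, Slc15a2 CPM (log axis) by class and library with 95% Poisson intervals, where vehicle 1 is the highest library in every class shown and vehicle 2 the lowest in all 3 neuron classes. Right, the number of genes (symmetric log axis) at each log2 ratio of vehicle 1 to vehicle 2 in neurons, with lines for 4 of the genes and Slc15a2 alone at 2.30.

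ImP was compared with vehicle within each class (edgeR quasi-likelihood test, 2 libraries against 2, 2 residual degrees of freedom per gene). The 6 genes that passed the filter in at least 1 set of nuclei gave 34 tests, and 0 passed, with a lowest adjusted p of 0.412, while 2 of the 34 had an unadjusted p under 0.05. DESeq2 also called 0, with 1 unadjusted p under 0.05. It gave no adjusted p for Slc38a3 in neurons or for Slc15a2 in GABAergic and glutamatergic neurons, so these could not have been called. Over all genes, edgeR called 0.0047% of genes in all nuclei, 0.00495% in neurons, 0.0178% in GABAergic and 0.00602% in glutamatergic neurons, 0.00849% in astrocytes, 0% in oligodendrocytes and 0.518% in precursors. DESeq2 called more, 375 genes in all nuclei (2.19% of those with an adjusted p) and 262 in neurons (1.93%), and edgeR with the library-name prefix as a block called 790 and 678. In microglia, newly formed oligodendrocytes and ependymal nuclei none of the 8 passed the filter. Of the other listed genes, 0 passed in 171 tests, 9 at an unadjusted p under 0.05.

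The lower of the 2 unadjusted values was that of Slc38a3 in neurons. It stood at 0.884 and 1.11 CPM in the vehicle libraries and at 1.95 and 1.75 in the ImP libraries, from 34, 42, 71 and 66 UMIs, so that the groups did not overlap. The difference was 0.90 (log2, SE 0.24, edgeR adjusted p = 0.412), and 0.90 with the library-name prefix as a block (adjusted p = 0.0877), a fit that called far more genes. It was 0.98 without ImP 4, which held nearly all pituitary nuclei, 0.84 without ImP 3, 0.73 without vehicle 1 and 1.09 without vehicle 2. The summed astrocyte markers in the same nuclei were also higher in both ImP libraries (170, 190, 251 and 235 CPM), as were the oligodendrocyte markers (175, 217, 284 and 289), and their part in the result was not tested. In astrocytes, where the gene is abundant, the difference was -0.31 (SE 0.20, adjusted p = 0.625), and in precursors 0.45 (SE 0.32, adjusted p = 0.744).

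The other unadjusted value was that of Slc15a2 in precursors, where 58.6 and 23.9 CPM in vehicle stood against 18.0 and 22.9 with ImP, a difference of -1.02 (SE 0.44, edgeR adjusted p = 0.429). In neurons the same gene gave -0.33 (SE 0.60, adjusted p = 0.943), and its sign depended on which vehicle library was kept. Without vehicle 1 it was 1.25 and in glutamatergic neurons 2.07. Without vehicle 2 it was -1.06 and in GABAergic neurons -1.31. Each of these fits left 1 vehicle library, so the spread between vehicle libraries did not enter and only the size is given. The library names begin with 111 in vehicle 1 and ImP 3 and with 113 in vehicle 2 and ImP 4, and the labels do not say what this stands for. Within prefix 111 the neuronal level was 13.7 in vehicle and 6.59 with ImP, and within prefix 113 it was 2.69 and 6.28, in the opposite direction.

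For the other genes the difference between ImP and vehicle did not pass the test. Carns1 in oligodendrocytes gave -0.44 (log2, SE 0.24, edgeR adjusted p = 0.540), where vehicle 1 was the highest library and vehicle 2 lay within the ImP range. Vehicle 1 over vehicle 2 was 1.54 there (1.08 to 2.19). Slc15a4 gave 0.01 in all nuclei and -0.04 in neurons (SE 0.088 for both), and Cndp2 -0.13 and -0.14 (SE 0.13 for both). Slc22a3 in neurons gave -0.20 (SE 0.17, adjusted p = 0.865). Cndp2 in precursors fell short of the filter, with 7 and 6 UMIs in vehicle and 1 and 1 with ImP, and gave -2.60 (SE 0.89, adjusted p = 0.301) in a fit without a filter.

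Whether the ImP difference of a class departed from that of the other classes was tested directly for the 5 genes that passed the filter. In 40 tests none passed (edgeR, lowest adjusted p 0.912, 1 unadjusted p under 0.05, and likewise 0 and 1 with DESeq2). For Carns1 the edgeR SE was 1142 (GABAergic neurons) to 24044 (microglia) in every class but newly formed oligodendrocytes. Those Carns1 tests could not have passed, and no conclusion is drawn from them. Over all genes, 0.00734% passed in GABAergic neurons, 0.022% in astrocytes, 0.0367% in oligodendrocytes, 0.0147% in microglia, and 0% in glutamatergic neurons, newly formed oligodendrocytes, precursors and ependymal nuclei. With 2 libraries a group, a p that misses the threshold does not show that levels were equal.

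**Figure D4:**
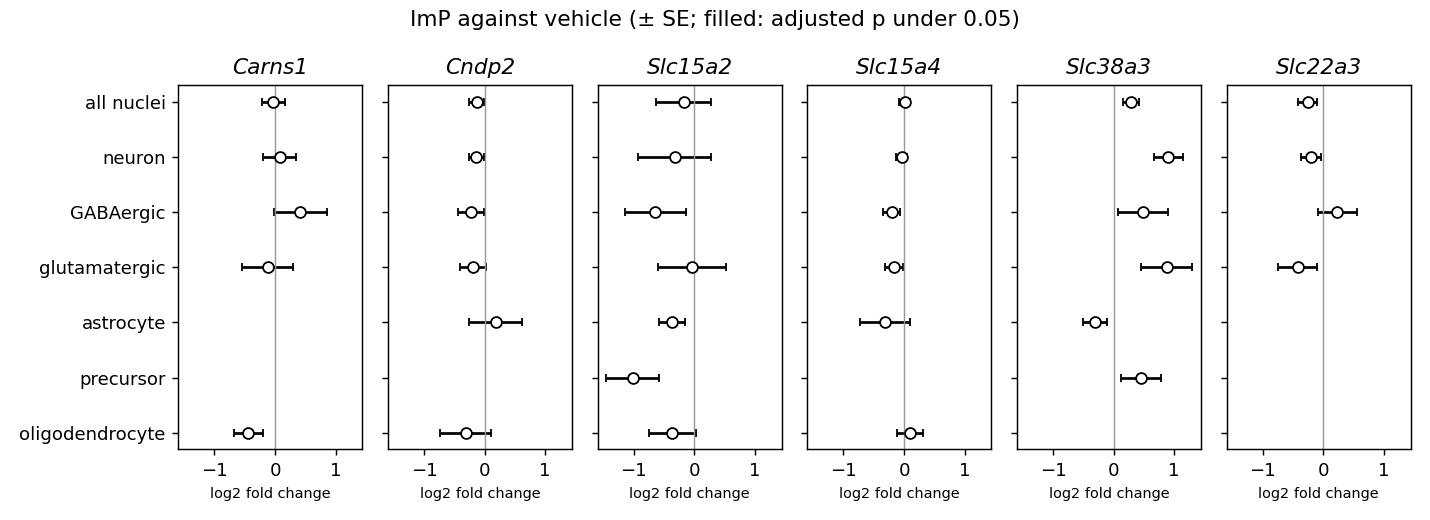
ImP against vehicle (log2 fold change, horizontal axis, bars 1 SE) for 6 of the genes in 7 sets of nuclei, where a point is drawn if the gene passed the filter. All points are open, since no adjusted p was under 0.05, and the point farthest to the left is Slc15a2 in precursors at -1.02.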

How the data were processed

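The authors deposited whole-number UMI counts per gene and barcode for 4 libraries, made with Cell Ranger 8.0.1 on build GRCm39. Both come from the submitters' processing notes. These list Seurat 5.0.0 too, without its role, and the sources used here name neither the annotation release nor the treatment of intronic reads. From these counts, nuclei with at least 500 genes and at most 5% mitochondrial UMIs were kept. Classes were gated by detected markers with no clustering: 5 of 10 neuron markers, at least 3 of them among 6 core ones, 4 markers for astrocytes, oligodendrocytes, newly formed oligodendrocytes, precursors and microglia, and 3 for the rest. No doublet caller was run. Nuclei that passed more than 1 gate (5.21% to 7.20%) and ungated ones (9.22% to 14.6%) stayed out of the classes. The gate thresholds were set in 2 rounds after marker counts per nucleus and class sizes had been seen and before any value of the 8 genes. The genes and lists were chosen with earlier results of these data known.

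UMIs were summed per library and class, for classes with at least 20 nuclei in every library, and tested with the edgeR 4.0.16 quasi-likelihood test (R 4.3.3, TMM factors, filterByExpr minimum count 10, Benjamini-Hochberg adjustment over all genes of a fit, threshold 0.05). SEs were taken from the test statistic. The tests were tried on simulated data. Total UMIs of 48060194 to 51945297 per library set the precision. Intervals are exact 95% Poisson or binomial ones and, like thinning to 1000 UMIs per nucleus, cover counting error only. A count of 0 is given with the limit of 3 counts. Alternatives were DESeq2 1.42.0, RLE factors, no filter, a gate with 1 more marker, nuclei of at least 1000 genes, leaving out the 5% of nuclei with most UMIs or 1 library, and the library-name prefix as a block. All 8 genes are named with values, and listed genes by their highest class. The deposited identifiers gave the names. The reference at hand was of another build and was used only for gene order and promoter sequences.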

Additional observations from a re-analysis of the deposited data

How the results depend on the processing

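Of the 20 calls of the 8 genes between classes, 14 were kept under every alternative tried and 6 were lost under at least 1, of which 2 were lost only when 1 library was left out. The calls of Carns1 in oligodendrocytes, of Slc15a2 and Slc38a3 in astrocytes and of Cndp2 in microglia were among those kept. Where a gene passed the filter on low counts through the class concerned, as Carns1 did, its call is a description only. Of the 32 calls between pairs of classes, 7 were lost under at least 1 alternative. Leaving out 1 library gave 15 to 18 of the calls between classes and 34263 to 34956 over all genes and classes. No paired analysis was possible because the vehicle and ImP libraries share no replicate number in the labels, and this holds for pairing by number only. The library-name prefix, whose meaning the labels do not give, joins vehicle 1 with ImP 3 and vehicle 2 with ImP 4, and with it as a block 4026 genes were called over the 10 sets of nuclei, none of them one of the 8. The ImP calls over all genes and sets were 47 in the design given above, 800 with DESeq2, 935 with no filter, 15 with the stricter gate, 71 without the 5% of nuclei with most UMIs, 7 with nuclei of at least 1000 genes, and 80 to 2161 with 1 library left out, where the 8 genes gave 0 to 2 calls. The calls of a class-specific ImP difference were 11, and 7 with RLE factors, 32 with no filter, 0 with the stricter gate, 6 with nuclei of at least 1000 genes, and 6 to 67 with 1 library left out. The causes were not tested, except that the stricter gate left too few ependymal nuclei and the filter at 1000 genes too few ependymal and newly formed ones, so those classes were not fitted there. In those settings the mean of the other classes was taken over fewer classes. A call lost there is therefore not a test against the same mean. The sign of a difference between ImP and vehicle that had not passed the test turned for Slc15a4 with nuclei of at least 1000 genes (-0.015 in all nuclei, -0.18 in oligodendrocytes). With 1 library left out, Carns1 ranged from -0.16 to 0.097 in all nuclei and -0.10 to 0.25 in neurons, Slc15a2 from -0.77 to 0.86 in all nuclei, -1.06 to 1.25 in neurons, -0.69 to 0.057 in astrocytes and -0.91 to 0.53 in oligodendrocytes, Slc15a4 from -0.034 to 0.060 in all nuclei, -0.95 to 0.11 in astrocytes and -0.11 to 0.28 in oligodendrocytes, and Cndp2 from -0.21 to 0.50 in astrocytes. Thinned to 1000 UMIs, the mean share of nuclei with a UMI moved to 3.37% for Carns1 and 3.46% for Slc15a4 in oligodendrocytes, 5.50% for Slc38a3 in astrocytes and 0.310% for Slc22a3 in neurons. Depth limits Cndp2 and Slc15a4 in microglia to 3 to 13 UMIs per library, and in newly formed oligodendrocytes to 4 and 22 UMIs over the 4 libraries.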
